A study of Mus musculus with 2 samples.

Results

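The 10 genes Ankrd1, Ankrd2, Ankrd23, Xirp1, Xirp2, Fhl1, Fhl2, Fhl3, Pdlim3 and Pdlim7 encode muscle proteins known to respond to stretch. They were taken by name, matched by gene identifier, and make up 10 of the 55536 Ensembl genes in the tables. Their levels came from total RNA-seq of the gastrocnemius, the large calf muscle, of female B6CASTF1/J mice, the first-generation cross of C57BL/6J and CAST/EiJ, at an age of 4 days. There was 1 group with 2 libraries, biological replicates 1 and 2, numbered as animals 3 and 4 and listed under the same donor record. Each library was made from 300 ng of total RNA with reduced ribosomal RNA, strand information kept and ERCC spike-in transcripts added. The labels name no treatment, loading or stretch, so the values describe the level of these genes in a growing muscle and not a response. The labels do not say whether the animals shared a litter, so the spread between the libraries may be partly technical.

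The 10 genes fall into 4 families whose proteins sit on or near the elastic and anchoring parts of the sarcomere. Ankrd1 (CARP), Ankrd2 (ARPP) and Ankrd23 (DARP) are muscle ankyrin repeat proteins that bind the spring region of titin and can also enter the nucleus. Xirp1 (Xin) and Xirp2 (myomaxin) bind actin filaments through Xin repeats and lie at sites where force is passed to the membrane and where the sarcomere is repaired. The FHL proteins are built from LIM zinc-binding domains and act as adaptors on titin and on transcription factors, while Pdlim3 (ALP) and Pdlim7 (Enigma) join a PDZ domain, which binds alpha-actinin or actin-associated tropomyosin, to LIM domains. Several of these genes are known to rise in muscle that is loaded, stretched or injured.

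The libraries carried 30961087 and 36246031 expected counts, which are read counts estimated per gene and need not be whole. The labelled tissue was borne out by sarcomere genes: Ttn, which encodes titin, stood at 1707 and 1903 TPM, Actn2 at 632 and 716 TPM and Des (desmin) at 606 and 717 TPM, where TPM is transcript abundance corrected for length and depth. Of 5 heart markers, Nppa and Nppb had 0 counts in both libraries, Myl7 had 0 and 2 and Tnni3 15 and 13, while Myh6 stood at 54.1 and 43.1 TPM. Another deposited quantification of the same reads put Myh6 at 22.7 and 20.8 TPM, so its level depended on the quantification. The libraries differed in genes of neighbouring tissues. In replicate 2 the summed level of 5 tendon genes was 168 TPM against 286 TPM in replicate 1, that of 5 red cell genes 5.68 against 41.5 TPM and that of 5 bone genes 1.07 against 29.3 TPM. The summed level of 5 liver genes was 92.3 TPM in replicate 2 against 9.09 TPM in replicate 1. In bulk RNA a lower value from fewer cells of a type and one from less RNA per cell cannot be told apart.

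All 10 genes reached the 1 TPM taken as detection in each library, as did 13336 of all 55536 genes. The 10 spanned a 134-fold range. Fhl1 was the highest, at 483 and 533 TPM (508 ± 35.3, SD, n = 2), and Ankrd1 the lowest, at 3.67 and 3.94 TPM (3.81 ± 0.191, SD, n = 2). Fhl1 alone made up 51.5% of the summed TPM of the 10 genes in replicate 1 and 51.0% in replicate 2. Among the 13336 genes detected in this muscle, Fhl1 stood at the 99.1 percentile, Pdlim3 at 97.3 and Pdlim7 at 95.6, whereas Ankrd1 stood at 23.7. The median of the 10 genes was 36.4 TPM and that of all detected genes 9.40 TPM, and 9 of the 10 lay above the latter. Ankrd1 was the exception.

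From high to low the order was Fhl1, Pdlim3, Pdlim7, Ankrd23, Xirp1, Xirp2, Fhl3, Ankrd2, Fhl2 and Ankrd1. Of the 9 pairs of neighbours in this order, 8 did not overlap between the libraries and 1, Xirp1 and Xirp2, did. In replicate 1 the narrowest step without overlap was Ankrd2 over Fhl2, where Ankrd2 was 1.05-fold higher, against 1.503-fold in replicate 2. By the means the narrowest was Ankrd23 over Xirp1, at 1.22-fold. With 2 libraries this is a description of the spread and no test. The SD was between 3.16% and 13.9% of the mean in all 10 genes. A separate quantification of the same reads, deposited per transcript and summed per gene, gave the same order of the means. There Xirp1 and Xirp2 stood at means of 54.8 and 54.7 TPM, and Xirp2 was the higher in replicate 2. The Fhl3 values there, 46.6 and 54.2 TPM, overlapped those of Xirp1, 50.9 and 58.8 TPM, and of Xirp2, 49.9 and 59.6 TPM.

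**Figure D1:**
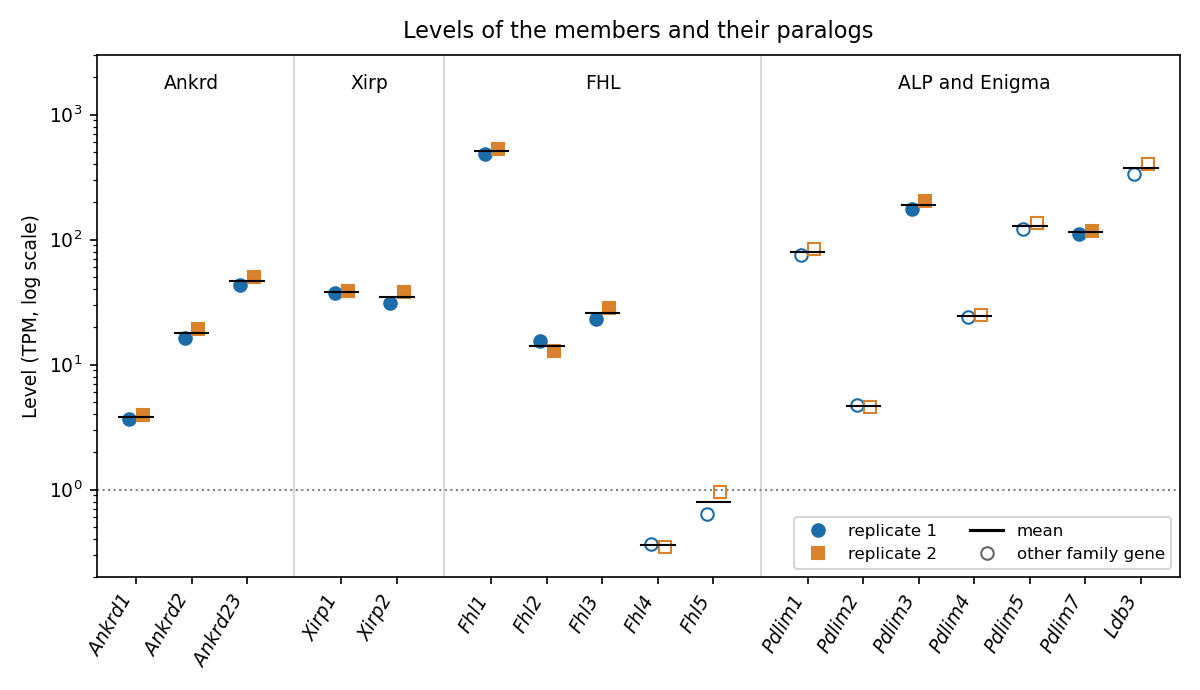
Level of each gene and its paralogs in TPM (log scale) in replicate 1 (circles) and replicate 2 (squares), with the mean as a line. Filled symbols are the 10 genes, open symbols the other genes of the FHL and ALP and Enigma families, and the dotted line is the 1 TPM used for detection. The range runs from 3.81 TPM for Ankrd1 to 508 TPM for Fhl1, and Fhl4 and Fhl5 lie under the dotted line.

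Ankrd23 dominated the titin-binding ankyrin repeat genes. Ankrd23 (ENSMUSG00000067653.12, mm10 chr1:36530188-36536883, minus strand) stood at 43.1 and 49.9 TPM (46.5 ± 4.86, SD, n = 2). Ankrd2 (ENSMUSG00000025172.3, chr19:42036000-42045110, plus strand), which in adult muscle is best known from slow fibres, stood at 16.2 and 19.3 TPM (17.8 ± 2.19, SD, n = 2). Ankrd1 (ENSMUSG00000024803.9, chr19:36111961-36120099, minus strand), the form that is abundant in heart, had 179 and 232 counts. The shares of the summed TPM were 68.3% ± 0.128 for Ankrd23, 26.1% ± 0.443 for Ankrd2 and 5.60% ± 0.316 for Ankrd1 (SD, n = 2). Ankrd23 was 2.65-fold and 2.58-fold higher than Ankrd2 in replicates 1 and 2, and Ankrd2 was 4.43-fold and 4.91-fold higher than Ankrd1. The libraries thus differed less than the paralogs did.

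The share of Ankrd2 depended on the unit. It was 16.9% by expected counts, which are not corrected for length, and 19.2% in the other quantification, while the order of the paralogs was the same in both. Ankrd23 was the member that differed most between the quantifications, at 124 TPM in the other tables, 2.67-fold its level in the gene tables against a median of 1.76-fold over 12911 detected genes. Much of the value in the other tables lay on the 663-nt Ankrd23-203, at 61.6 and 78.0 TPM from 367 and 541 counts. By the gene tables' method that transcript stood at 2.38 and 1.63 TPM. The locus Gm42417 shares 2109 exon bases, 78.2% of the exon bases of Ankrd23, on the same strand. It took 78.4 and 114 counts in the gene tables and 574 and 503 counts in the other tables, so the split between them is uncertain. The coding sequences of the ankyrin genes were 61.5% to 66.3% identical in pairwise alignment, and the longest run of bases shared by any pair was 26. No pair of these coding sequences therefore shared a stretch as long as the 100 nt read window that the effective lengths in the gene tables imply.

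The leading transcript was unresolved for both Ankrd1 and Ankrd2. Ankrd2-202 took 91.7% of the Ankrd2 TPM in replicate 1 and 30.9% in replicate 2, and Ankrd2-201 took the rest. The authors' TPM intervals for Ankrd2-202 ran from 6.05 to 16.3 in replicate 1 and from 0.183 to 14.4 in replicate 2, so they overlapped. The transcripts differ by 38 bases in 1 exon. For Ankrd1, Ankrd1-201 led in replicate 1 with 73.6% and Ankrd1-205 in replicate 2 with 65.5%, and the intervals of Ankrd1-205 overlapped as well, from 0.0333 to 1.12 TPM in replicate 1 and from 0.942 to 2.86 TPM in replicate 2. In the other quantification Ankrd1-205 led in both libraries, with 72.5% ± 4.40. Inside the coding sequence these differ by 12 bases in frame, shown here in capitals between their flanking coding bases because so short a difference is all that separates the proteins (GENCODE M21 transcript, mm10 chr19:36114977-36114988, minus strand):
Ankrd1-205 added bases: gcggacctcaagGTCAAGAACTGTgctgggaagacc

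For Ankrd23, Ankrd23-202 led in both libraries of the gene tables' method, with 70.5% and 66.7%, and Ankrd23-204 followed with 24.0% and 30.04%. In the other quantification the non-coding Ankrd23-203, a processed transcript of 663 nt, led with 56.4% ± 0.662 and Ankrd23-202 held 32.7% ± 0.617. The full-length coding form Ankrd23-201 was listed at 0 TPM in both libraries of the gene tables' method. The annotated coding sequence is 576 bases in Ankrd23-202, 819 in Ankrd23-204 and 918 in Ankrd23-201. Which of these forms the muscle made could not be settled from these tables.

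The Xin genes stood level per transcript. Xirp1 (ENSMUSG00000079243.3, chr9:120013755-120023598, minus strand) stood at 37.4 and 39.1 TPM (38.2 ± 1.21, SD, n = 2). Xirp2 (ENSMUSG00000027022.13, chr2:67446002-67526614, plus strand) stood at 31.2 and 37.9 TPM (34.5 ± 4.74, SD, n = 2). The highest Xirp2 value lay above the lowest Xirp1 value, so their levels overlapped, and Xirp2 held 47.3% ± 2.64 of the pair. By expected counts, where the longer Xirp2 transcript collects more reads, Xirp2 held 67.0%. The other quantification put Xirp1 at 1.02 times Xirp2 in replicate 1 and at 0.987 times in replicate 2.

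Xirp1 rested on a single long transcript whose short companion moved its TPM. Xirp1-201, of 5839 nt, stood at 31.9 and 38.2 TPM. Xirp1-202, of 321 nt, had 33.8 and 6.48 counts, which came to 14.5% and 2.35% of the gene's TPM. As a result the gene's log2 ratio of replicate 2 over replicate 1 was 0.06 by TPM and 0.25 by counts. Xirp1-201 held 100% in both libraries of the other quantification. Cx3cr1, whose annotated span covers Xirp1 on the same strand, shares 0 exon bases with it.

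Xirp2 was assigned to Xirp2-202, at 100% in both libraries and in the other quantification at 99.9981% on average. As annotated in GENCODE M21, Xirp2-202 carries 16 bases that Xirp2-201 lacks, in capitals below (mm10 chr2:67519220-67519235, plus strand). They are shown because the annotated reading frame depends on them: its coding sequence is 9849 bases with them and 11352 bases in Xirp2-201. Gm13601, annotated on the opposite strand of Xirp2, had 0 counts in both libraries.
Xirp2-202 added bases: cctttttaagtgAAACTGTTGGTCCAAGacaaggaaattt

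Fhl1 made up nearly all FHL transcripts. Fhl1 (ENSMUSG00000023092.16, chrX:56731787-56793346, plus strand), whose protein is the main FHL form of skeletal muscle, took 92.5% ± 0.145 of the summed TPM of the 5 FHL genes. Fhl3 (ENSMUSG00000032643.12, chr4:124700701-124708611, plus strand), which can hold back myogenic transcription factors, stood at 23.1 and 28.2 TPM (25.7 ± 3.57, SD, n = 2) and took 4.66% ± 0.334. Fhl2 (ENSMUSG00000008136.14, chr1:43123074-43196984, minus strand), the heart-enriched member, stood at 15.4 and 12.9 TPM (14.1 ± 1.79, SD, n = 2) and took 2.59% ± 0.501. Fhl4 at 0.37 and 0.35 TPM and Fhl5 at 0.64 and 0.95 TPM, both best known from testis, stayed under 1 TPM.

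Fhl1 was 20.9-fold and 18.9-fold higher than Fhl3 in replicates 1 and 2, and 31.4-fold and 41.4-fold higher than Fhl2. Fhl3 was 1.503-fold and 2.19-fold higher than Fhl2, because Fhl3 was higher and Fhl2 lower in replicate 2. The coding sequences of Fhl1, Fhl2 and Fhl3 were 63.9% to 67.9% identical, with no shared run over 18 bases. The order Fhl1, Fhl3, Fhl2 was the same in the other quantification.

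Fhl1 transcripts differ at their start and in 1 added exon, and the deposited quantifications disagreed on both. The gene tables' method gave Fhl1-204, which starts inside the gene, 65.5% and 60.4% of the TPM, followed by the incomplete Fhl1-207 with 12.2% and 18.5%. The other quantification gave Fhl1-204 6.12% ± 3.25 and put Fhl1-201 first with 39.0% ± 1.65. Summed over Fhl1-201, Fhl1-203 and Fhl1-206, starts at the far upstream exons took 9.64% ± 1.15 by the first method and 69.3% ± 0.334 by the other. The spread between libraries was small beside this gap in either method.

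Fhl1-203 carries a further exon of 200 bases that changes the end of the protein, the arrangement known from the FHL1B form, which has fewer LIM domains and signals for transport into and out of the nucleus. It took 1.86% ± 0.0349 by the first method and 28.6% ± 0.422 by the other. The added exon, and the coding start that Fhl1-204 shares with the minor Fhl1-202, are in capitals next to the exons they are joined to (GENCODE M21 transcripts, mm10, plus strand, chrX:56779773-56779794 and chrX:56791239-56791438). They are shown because they mark the start and the added exon on which the quantifications differed.
Fhl1-204 coding start: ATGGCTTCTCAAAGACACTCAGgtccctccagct
Fhl1-203 exon: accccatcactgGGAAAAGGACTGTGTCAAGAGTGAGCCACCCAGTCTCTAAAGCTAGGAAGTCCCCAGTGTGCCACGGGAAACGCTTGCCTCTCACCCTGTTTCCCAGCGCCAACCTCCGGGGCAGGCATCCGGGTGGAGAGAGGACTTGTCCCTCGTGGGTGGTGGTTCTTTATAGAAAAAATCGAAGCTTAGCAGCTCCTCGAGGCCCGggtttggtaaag

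Fhl2 and Fhl3 were simpler. Fhl2-201 took 100% and 99.1% of the Fhl2 TPM, and 93.6% ± 2.43 in the other quantification. Fhl3-201 took 94.5% and 90.4% of the Fhl3 TPM and 68.9% ± 1.09 in the other quantification, with Fhl3-202 holding the rest there. Fhl3-201 extends 1 coding exon by 27 bases that Fhl3-202 lacks, in capitals here (GENCODE M21, mm10 chr4:124707704-124707730, plus strand). They are shown because they are the whole coding difference between these forms, of 867 and 840 coding bases:
Fhl3-201 added bases: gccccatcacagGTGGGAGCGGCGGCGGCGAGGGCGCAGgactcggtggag

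Pdlim3 and Pdlim7 were the highest of the 10 after Fhl1. Pdlim3 (ENSMUSG00000031636.7, chr8:45885461-45919548, plus strand), an alpha-actinin binding protein of the Z-disc, stood at 174 and 204 TPM (189 ± 21.1, SD, n = 2). Pdlim7 (ENSMUSG00000021493.15, chr13:55495795-55513676, minus strand), an adaptor on actin filaments, stood at 111 and 118 TPM (114 ± 4.33, SD, n = 2). Within the 7 genes of the ALP and Enigma family, Pdlim3 took 20.7% ± 0.294 and Pdlim7 12.6% ± 0.749 of the summed TPM. Ldb3, which encodes the Z-disc protein ZASP or Cypher, took 40.5% ± 1.15, Pdlim5 14.1% ± 0.266, Pdlim1 8.80% ± 0.182, Pdlim4 2.71% ± 0.191 and Pdlim2 0.515% ± 0.0594.

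Pdlim3 was 1.57-fold and 1.74-fold higher than Pdlim7 in replicates 1 and 2. In the other quantification the gap was 1.03-fold and 1.26-fold, since Pdlim7 stood 2.39-fold above its level in the gene tables and Pdlim3 1.65-fold above its own. Part of the Pdlim7 value there lay on the 365-nt Pdlim7-210, at 67.4 and 48.7 TPM from 108 and 94 counts. The gene tables' method put Pdlim7-210 at 3.20 and 1.43 TPM. Pdlim7-202 stood at 146 and 152 TPM there, against 76.1 and 84.2 TPM by the gene tables' method. The share of Pdlim3 was 16.9% by counts and 18.8% in the other quantification. Pdlim5, whose protein ENH also joins a PDZ domain to LIM domains, was 1.09-fold and 1.16-fold above Pdlim7 in the gene tables and at 0.829 and 0.943 of it in the other tables, so their order depended on the quantification.

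Pdlim3 was read as 2 main forms, of which Pdlim3-203 was the higher in both libraries. Pdlim3-203, with 364 codons, stood at 90.5 and 106 TPM, 51.9% of the gene in both libraries. Pdlim3-201, with 316 codons, stood at 72.4 and 87.6 TPM, 41.5% and 42.9% of the gene. The longer arrangement is the one described from skeletal muscle and the shorter one from smooth muscle. Of the pair, Pdlim3-201 took 44.8% ± 0.563 by the gene tables' method and 42.8% ± 0.156 by the other. Retained-intron transcripts held 5.87% ± 0.975 of the Pdlim3 TPM. The 5 mural and smooth muscle markers summed to 239 and 242 TPM, and their part in the Pdlim3-201 level was not tested.

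The forms exchange 1 exon for a pair of others between the same flanking coding exons. These exons are printed because they carry the whole difference between the proteins. Capitals mark the exon and lower case the coding bases joined to it in the transcript (GENCODE M21, mm10, plus strand). Pdlim3-201 uses chr8:45908469-45908656, and Pdlim3-203 uses chr8:45909019-45909086 followed by chr8:45913697-45913960.
Pdlim3-201 alternative exon 1: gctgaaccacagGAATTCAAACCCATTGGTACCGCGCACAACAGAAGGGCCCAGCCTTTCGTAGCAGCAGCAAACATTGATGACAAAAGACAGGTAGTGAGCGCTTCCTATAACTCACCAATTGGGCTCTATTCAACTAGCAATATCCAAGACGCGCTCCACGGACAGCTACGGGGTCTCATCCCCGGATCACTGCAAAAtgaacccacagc
Pdlim3-203 alternative exon 1: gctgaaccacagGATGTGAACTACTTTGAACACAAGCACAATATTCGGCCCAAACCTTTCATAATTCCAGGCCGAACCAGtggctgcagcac
Pdlim3-203 alternative exon 2: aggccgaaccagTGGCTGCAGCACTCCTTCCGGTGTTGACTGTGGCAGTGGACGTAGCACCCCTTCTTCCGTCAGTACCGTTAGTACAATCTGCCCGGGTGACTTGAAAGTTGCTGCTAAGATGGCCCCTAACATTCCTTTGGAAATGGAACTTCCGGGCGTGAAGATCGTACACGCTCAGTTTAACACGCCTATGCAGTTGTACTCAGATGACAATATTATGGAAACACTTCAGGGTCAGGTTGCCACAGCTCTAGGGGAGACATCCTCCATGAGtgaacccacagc

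Pdlim7 was read mostly as short transcripts that end before the exons of its LIM domains. By the gene tables' method Pdlim7-202, with 188 codons, took 68.3% and 71.6% of the TPM, and Pdlim7-203, with 222 codons, took 11.8% and 13.3%. The full form Pdlim7-201, with 457 codons, took 6.31% and 7.23% and stood at 7.03 and 8.49 TPM. Pdlim7-201 has 6 coding exons with 799 coding bases beyond the coding end of Pdlim7-202. Annotated transcripts without these exons held 89.2% ± 0.0992 of the Pdlim7 TPM and the 4 that carry them, Pdlim7-201 among these, held 10.8% ± 0.0992. Of the 4, 2 are annotated as retained introns, and without them the share was 6.94% ± 0.406. Some transcripts without these exons are fragments that cannot tell whether the exons were present. They are the incomplete Pdlim7-210 at 2.04% ± 1.17 and the retained intron Pdlim7-205 at 2.13% ± 0.513, with Pdlim7-207 and Pdlim7-208 at 0%. In the other quantification the 4 transcripts that carry the exons held 8.93% ± 0.328. There 21.2% ± 3.68 of the TPM lay on Pdlim7-210 and 4.87% ± 2.16 on Pdlim7-208, both short models whose coding sequence runs to their last base.

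Pdlim7-202 has a 17-base exon where Pdlim7-203 and Pdlim7-201 have a 119-base exon, and Pdlim7-202 and Pdlim7-203 share their own coding end. The 3 stretches are shown in capitals after the coding bases that precede them, because they separate the short forms from each other and from the full form (GENCODE M21, mm10, minus strand, chr13:55507864-55507880, chr13:55508208-55508326 and chr13:55507030-55507123).
Pdlim7-202 exon: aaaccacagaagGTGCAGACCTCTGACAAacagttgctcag
Pdlim7-203 exon: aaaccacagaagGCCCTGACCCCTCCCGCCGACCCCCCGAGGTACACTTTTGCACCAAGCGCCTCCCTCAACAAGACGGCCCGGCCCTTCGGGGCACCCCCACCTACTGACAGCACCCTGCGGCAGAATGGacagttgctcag
Pdlim7-202 coding end: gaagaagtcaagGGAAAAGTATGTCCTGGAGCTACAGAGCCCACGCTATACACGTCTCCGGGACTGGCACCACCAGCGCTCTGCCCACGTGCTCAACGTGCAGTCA

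**Figure D2:**
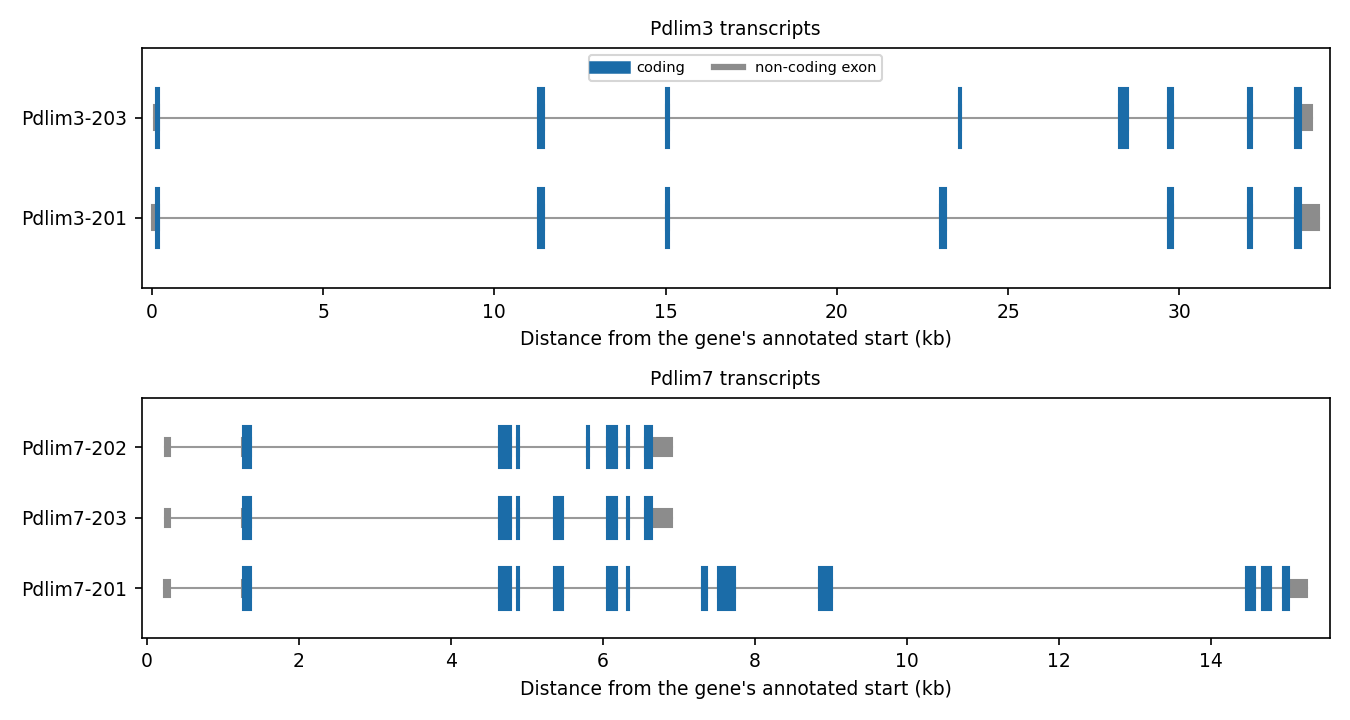
Exons of the leading Pdlim3 and Pdlim7 transcripts against the distance in kb from each gene's annotated start, read 5′ to 3′, with coding parts in blue and the rest of the exons in grey. The coding parts of the Pdlim3 forms differ in the middle exons, while Pdlim7-202 and Pdlim7-203 stop before the last 6 coding exons of Pdlim7-201.

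Over the 10 genes, which have 47 annotated transcripts, 8 had the same leading transcript in both libraries by the gene tables' method. In 6 of these, Xirp1, Xirp2, Fhl2, Fhl3, Pdlim3 and Pdlim7, the leader was also the same in the other quantification. The plot of transcript shares shows the genes with more than 1 form. Ankrd1 and Ankrd2 changed leader between libraries by the gene tables' method, and Ankrd23 and Fhl1 between quantifications. In the other quantification Ankrd1 kept its leader. Ankrd2 changed leader there too, in the opposite direction, with Ankrd2-202 going from 47.3% in replicate 1 to 99.4% in replicate 2.

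**Figure D3:**
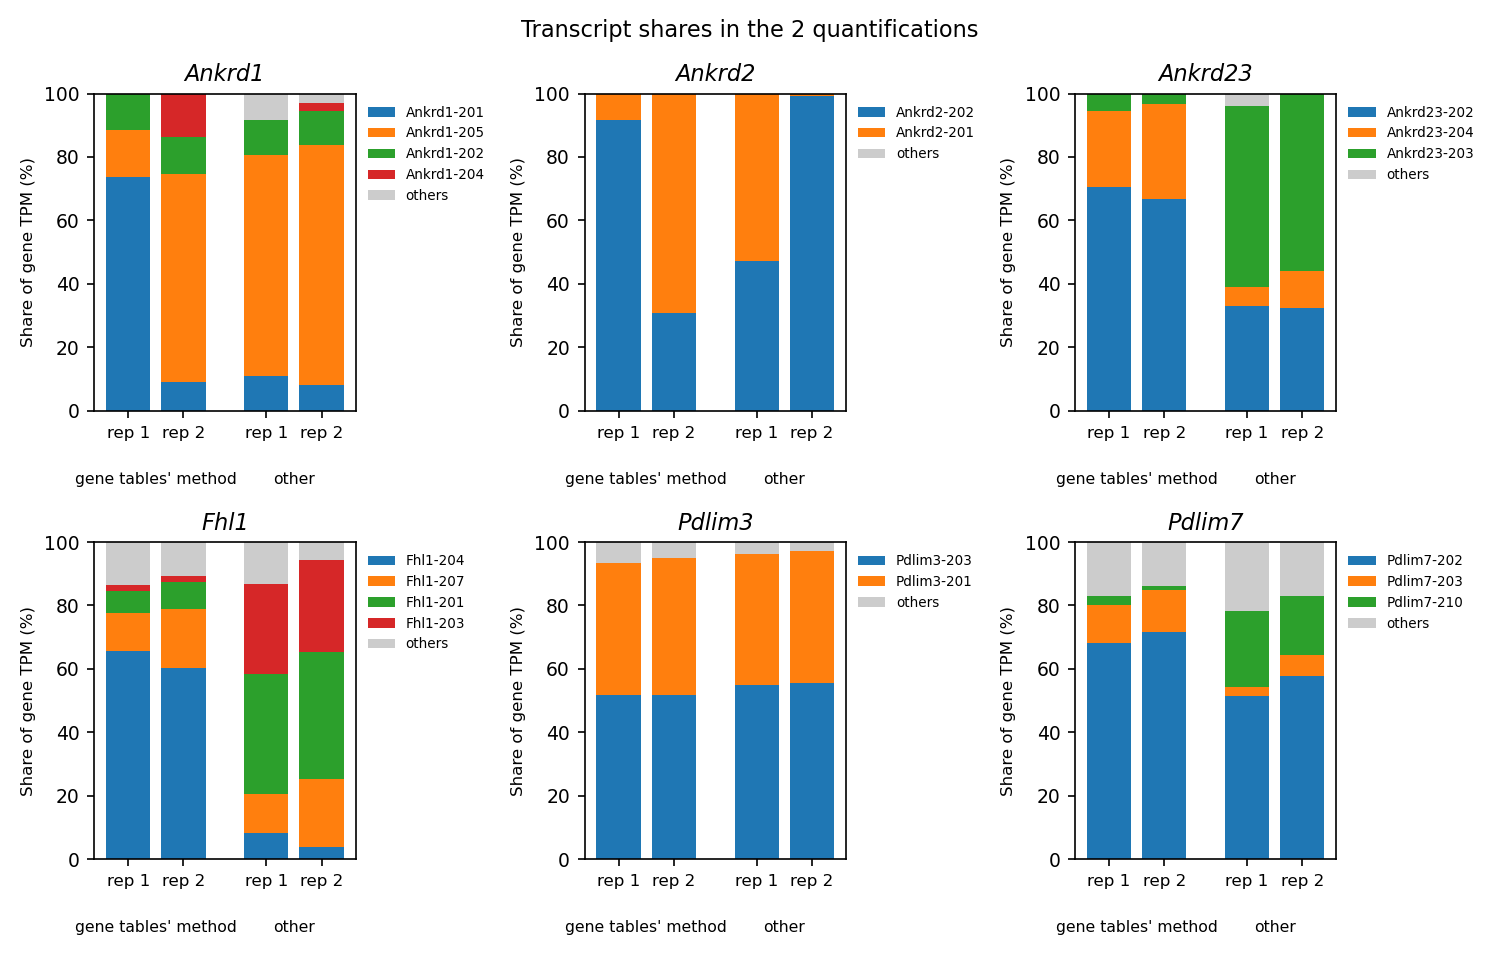
Share of the gene's TPM (%) held by each transcript in replicates 1 and 2 by the gene tables' method (left pair of bars) and by the other quantification (right pair), with the remaining transcripts in grey. Pdlim3 has nearly the same split in all 4 bars. Fhl1-204 holds 65.5% and 60.4% in the left pair and a small part in the right pair. Ankrd2-202 goes from 91.7% to 30.9% between the libraries in the left pair and from 47.3% to 99.4% in the right pair.

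Between the libraries 9 of the 10 genes were higher in replicate 2, at a background of 49.6% of the 17598 genes that averaged 10 counts or more. These ratios compare 1 library with 1, after scaling by the trimmed mean of M values (TMM), and carry no test. Scaled by the spike-ins, 7 of the 10 were higher, at a background of 24.2%, since this scaling moved the median over all genes from -0.00 to -0.14 on the log2 scale. None of the 10 was more than 0.32 apart on the log2 scale in either direction, the limit used here for a visible gap, at a background of 23.9%, or 10.5% among genes that averaged 100 counts or more. None passed 2-fold under either scaling, at a background of 3.75% with TMM and 4.56% with spike-ins.

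The 9 genes that were higher ranged from 0.03 for Pdlim7 to 0.29 for Xirp2 on the log2 scale. The Xirp2 counts were 10364 and 14286, with a 95% interval for counting error alone of 0.25 to 0.32. Fhl3 followed at 0.27 with 995 and 1356 counts, then Xirp1 at 0.25, Ankrd2 and Pdlim3 at 0.22, Ankrd1 at 0.20, Ankrd23 at 0.19 and Fhl1 at 0.10. The interval of Ankrd1, with 179 and 232 counts, ran from -0.09 to 0.49. That of Pdlim7, with 3045 and 3510 counts, ran from -0.04 to 0.10, so both intervals held either direction. The intervals leave out variation between animals and libraries, so they do not settle the direction of the other genes either. With spike-in scaling Fhl1 was at -0.040 and Pdlim7 at -0.11, so their direction depended on the scaling.

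Fhl2 was the 1 gene lower in replicate 2, with 631 and 598 counts and a log2 ratio of -0.25 (counting interval -0.42 to -0.09). With spike-in scaling it stood at -0.39, past the limit of 0.32, at a background of 29.3% of genes. It was lower under every scaling computed and in the other quantification, where it was at -0.22. The tendon markers were also lower in replicate 2, all 5 of 5, with a median of -0.67 on the log2 scale. So were 4 of 5 fibroblast markers, at a median of -0.13, with summed levels of 5392 and 4585 TPM. Over all genes 8862 of 17598 were lower. All 5 red cell genes, at a median of -2.82, and all 5 bone genes, at -4.81, were lower too, as were 2 of 5 mural markers. All 5 endothelium markers and all 5 liver genes were higher with TMM scaling. With spike-ins 0 of 5 endothelium markers were higher, at a median of -0.02, as were 0 of 5 fibroblast and 1 of 5 mural markers. All 5 liver genes stayed higher, and the background was 24.2% of genes. The part of these tissues in the Fhl2 value was not tested.

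**Figure D4:**
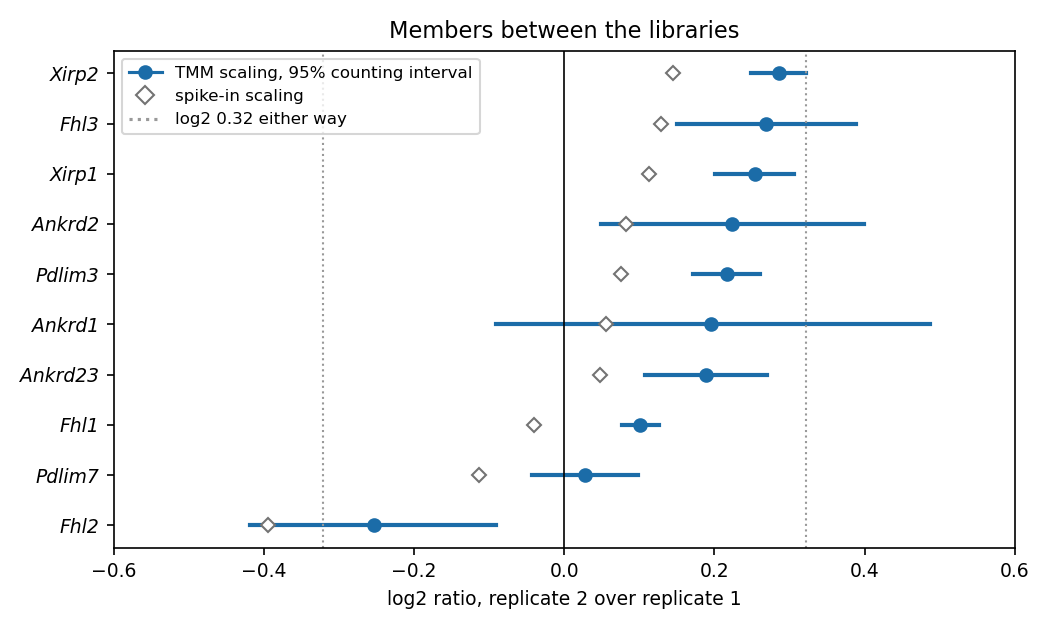
Log2 ratio of replicate 2 over replicate 1 for each gene, with TMM scaling as filled circles, the 95% interval of counting error as bars and spike-in scaling as open diamonds. The dotted lines mark a log2 ratio of 0.32 in either direction. All circles lie between the dotted lines, 9 of the 10 to the right of 0 and Fhl2 to the left, and the spike-in values lie lower throughout.

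Most sarcomeric genes of the surrounding pathway were also higher in replicate 2. Of 12 genes for titin and its partners, 12 were detected and 12 were higher in replicate 2, with a median log2 ratio of 0.21, the same as the median of 0.21 over the 10 genes and against -0.00 over all genes. Among the highest by level were Ttn, Cryab, a small heat shock protein that protects titin, at 265 and 279 TPM, and Tcap, which caps titin at the Z-disc, at 162 and 172 TPM. Of 15 further Z-disc and mechanosensing genes, 14 were higher, at a median of 0.23. Their levels were led by Actn2, Des, Actn3 at 532 and 666 TPM and Myoz1 at 418 and 497 TPM. With spike-in scaling 7 of the 12 and 12 of the 15 were higher, at a background of 24.2% of all genes. The TMM background was 49.6%.

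Target genes of YAP and SRF, transcriptional regulators that read mechanical tension in many cell types, were split evenly with TMM scaling. Of 12 such genes, taken from outside the 10, all were detected, 6 were higher and 6 lower in replicate 2. Their median log2 ratio was -0.00. With spike-in scaling 2 of the 12 were higher, at a background of 24.2% and a median of -0.14, equal to the median shift of all genes. Acta2, the smooth muscle actin gene, stood at 141 and 145 TPM, Axl at 65.6 and 66.4 TPM, Vcl, the focal adhesion protein vinculin, at 52.6 and 54.0 TPM and Tagln at 33.0 and 30.6 TPM. None of the 12 passed the limit of 0.32 with TMM scaling. The background was 23.9%, or 10.5% among genes that averaged 100 counts or more, as all 12 did. With spike-ins Amotl2 at -0.37 and Tagln at -0.39 passed the limit, at a background of 29.3%. The difference between these lists was not tested.

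Promoters of the 10 genes were searched for 4 motifs of muscle and tension-linked transcription factors on both strands. RefSeq (GRCm38.p6) gave 12 promoters of 300 bases, from 250 before to 50 after the start, for 9 of the 10 genes. The M-CAT motif CATTCC, bound by TEAD factors, was in 4 of the 12, those of Ankrd1, Ankrd23 and Pdlim3, and in 14.7% of all 32851 promoters. The CArG box, bound by SRF, was in 3 of the 12 and in 1.63% of all. These 3 belong to 2 of the 9 genes, Fhl1 and Fhl2, and the Fhl1 promoter at chrX:56786277-56786576 held no CArG match. The MEF2 core, CTA and TAG parted by any 4 bases, was in 1, that of Xirp2, and in 3.69% of all. The E-box CANNTG, bound by MyoD and related factors, was in 9 of the 12 and in 72.3% of all. A match is a description of the letters and not a sign of binding.

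The stretches of 60 bases around matches that lie outside annotated exons are given with the motif in capitals, to show the letters behind these counts. They are Ankrd23 at GRCm38.p6 chr1:36535827-36535886 (minus strand), Pdlim3 at chr8:45885259-45885318 (plus strand, with the motif read on the other strand), Fhl1 at chrX:56779556-56779615 (plus strand), Fhl2 at chr1:43163962-43164021 (minus strand) and Xirp2 at chr2:67445903-67445962 (plus strand). The Fhl1 stretch lies before the first exon of Fhl1-204 and not before the far upstream exons.
Ankrd23 M-CAT: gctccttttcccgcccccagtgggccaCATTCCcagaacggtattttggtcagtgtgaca
Pdlim3 M-CAT: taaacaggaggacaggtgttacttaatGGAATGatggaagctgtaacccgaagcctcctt
Fhl1 CArG box: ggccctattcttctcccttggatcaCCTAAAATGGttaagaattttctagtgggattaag
Fhl2 CArG box: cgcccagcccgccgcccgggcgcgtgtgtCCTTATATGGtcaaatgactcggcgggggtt
Xirp2 MEF2 core: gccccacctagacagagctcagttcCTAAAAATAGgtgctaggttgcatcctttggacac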

How the data were processed

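Total RNA-seq of gastrocnemius was analysed in 1 group of 2 libraries. The values used were expected counts and TPM per gene and per transcript, as the authors deposited them in 2 tables for each library. A further deposited table of estimated counts and TPM per transcript, from another quantification, was summed per gene and served as an alternative. Per the file headers the transcript tables also give each transcript as a percent of its gene, and all but the alternative give the bounds of a TPM interval, treated here as a score. The build was mm10 with GENCODE M21, per the notes deposited with the files. How reads were aligned, quantified and assigned to strands was not given in the sources used here. Counts of overlapping genes are therefore uncertain. Reads of both parental strains were assigned to mm10.

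Expected counts were rounded, scaled with edgeR 4.0.16 (TMM over genes that averaged 10 counts or more) and turned into log2 ratios with a prior count of 2, a step tested on simulated data. No p-value was computed, since 1 library stood against 1. Totals were 30961087 and 36246031 expected counts, and the 95% intervals cover counting error only. Promoters came from RefSeq GRCm38.p6 and exon sequences from GENCODE M21. Coding sequences were aligned with Biopython 1.88 in place of the planned protein sequences. Alternatives were scaling by library size, by spike-ins or by the size factors of DESeq2 1.42.0, other minimums and prior counts, TPM without spike-ins, tRNA entries and mitochondrial genes, counts in place of TPM, the other quantification and each library alone. Named genes were the 10 genes, the FHL and ALP and Enigma families, up to 4 of highest TPM in each other list, and transcripts with 10% or more of a gene. A gene within this rule is withheld and is not reported here. The 10 genes and the lists were chosen with earlier results of these data known.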

Additional observations from a re-analysis of the deposited data

How the results depend on the processing

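No paired analysis was possible because the series has 1 group only. By expected counts in place of TPM, the share of Ankrd2 among the ankyrin genes was 16.9%, of Xirp2 among the Xin genes 67.0%, of Fhl1 among the FHL genes 93.6% and of Pdlim3 among the ALP and Enigma genes 16.9%. In the other quantification the shares of Ankrd2, Fhl1 and Pdlim3 were 19.2%, 91.0% and 18.8%. The number of the 10 genes past 0.32 on the log2 scale between libraries, 0 as reported, was 1 (Fhl2) with spike-in scaling and 2 (Ankrd23 at 0.37 and Xirp2 at 0.33 on the log2 scale) in the other quantification. Fhl1 turned to -0.040 with spike-ins, and Pdlim7 to -0.022 with library size and -0.11 with spike-ins. The cause was not tested. Across all alternatives, 74 other log2 ratios of single genes kept their direction and their side of the limit. All 10 TPM levels were higher in the other quantification, from 1.43-fold for Xirp1 to 2.67-fold for Ankrd23. The median over 12911 detected genes was 1.76-fold, so higher values there were general. With detection at 5 TPM, 9 of the 10 genes were detected, all but Ankrd1, and the share of all genes at this limit was not computed. With 2 libraries the SD rests on 1 degree of freedom. Depth limited Ankrd1, at 179 and 232 counts, most.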

Other observations

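Among the genes listed beside the 10, 4 of 12 titin partners and 2 of 15 Z-disc genes were more than 0.32 apart on the log2 scale between the libraries, at a background of 23.9% of all genes tested. The background was 10.5% among genes that averaged 100 counts or more. Neither count was tested against these shares, and the Z-disc count lay below the first. The genes are named here after their values were seen. These were Nbr1, an autophagy receptor at the titin kinase, at a log2 ratio of 0.64, the ubiquitin ligases Trim63 at 0.47 and Trim55 at 0.33, the protease Capn3 at 0.36, the Z-disc stretch sensor Csrp3 at 0.50 and Myoz3 at 0.33. Csrp3 stood at 74.2 and 106 TPM and Trim63 at 13.8 and 18.7 TPM. All were higher in replicate 2, and with spike-in scaling Nbr1 at 0.50, Csrp3 at 0.36 and Trim63 at 0.33 were still past this limit. The value of Nbr1 was 0.35 by TPM and 0.64 by counts. By TPM, Csrp3 was at 0.51, Trim63 at 0.44 and Capn3 at 0.35, while Myoz3 was at the limit and Trim55 inside it at 0.23. Nexn, an actin-binding Z-disc gene, was the 1 of the 15 that was lower, at 93.8 and 77.7 TPM.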
